A study of Mus musculus with 6 samples.

Results

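The *Kdr*-type capillary endothelial cells of mouse dorsal skin, called K cells here, numbered 2172 of the 12093 cells taken as endothelial cells (ECs) and of the 27418 barcodes in 6 droplet libraries. They were chosen by their own transcripts. Barcodes were kept if 200 to 5000 genes were seen and mitochondrial UMIs stayed below 10%, where a UMI (unique molecular identifier) stands for 1 captured mRNA molecule. A kept barcode was taken as an EC when it held 0 UMIs of *Ptprc*, the gene of the leukocyte antigen CD45, and at least 1 of *Pecam1*, the gene of the endothelial adhesion molecule CD31. It was a K cell when at least 2 of the 5 genes *Car4*, *Gpihbp1*, *Rbp7*, *Timp4* and *Cd300lg* had a UMI and when more genes of this set were detected than of each of 5 other sets. These were A for arteries (*Gkn3*, *Sema3g*, *Cytl1*, *Stmn2*, *Gja4*), V for veins (*Ackr1*, *Selp*, *Sele*, *Vwf*, *Lrg1*) and R for the *Rgcc*-type capillaries (*Rgcc*, *Adamts4*, *Stc1*, *Il6*, *Noct*). The last were C for collecting (*Nts*, *Cldn11*, *Nsg1*, *Cd24a*, *Gdf15*) and L for capillary lymphatics (*Lyve1*, *Mmrn1*, *Reln*, *Flt4*, *Fndc1*). The number of K genes with a UMI is the K score of a cell. Levels of these 30 genes, of *Ptprc*, *Pecam1* and the mitochondrial genes describe the choice and are given without a test. The fits between stages and between KO and WT telogen did not leave these genes out. Their counts of called genes therefore include some of them, and nothing is read from those calls.

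The study asked how *Cdh5*-expressing lineages of the skin vary between hair cycle rest (telogen) and growth (anagen) and after loss of Alk1, the receptor encoded by *Acvrl1*. All mice carried *Cdh5*-CreERT2, a tamoxifen-inducible recombinase driven by the VE-cadherin gene, and a tdTomato reporter, and received 200 µg/g tamoxifen at postnatal day (PD) 17. The 2 WT telogen mice (S1 and S2, PD 20) and the 2 WT anagen mice (S1 and S2, PD 32) were tdTomato;Cdh5-CreERT2;Krt14-H2BGFP on a C57BL/6;CD1 background, and the 2 KO telogen mice (S1 and S2, PD 25) were Alk1 flox/flox;tdTomato;Cdh5-CreERT2 with the strain given as C57BL/6. Each library held sorted live tdTomato+ cells of 1 mouse, 3 days after tamoxifen in WT telogen, 15 days in WT anagen and 8 days in the KO, so that age and time since induction changed together. The study describes the KO libraries as an earlier dataset of the same authors. Loss of *Acvrl1*, age, strain, the Krt14-H2BGFP reporter, the time since tamoxifen and the dataset cannot be told apart between KO and WT telogen. Of the labels of the KO libraries, the titles and descriptions name the KO while the genotype field reads wild type. Libraries also differed in sex-linked transcripts. In K cells, *Xist*, expressed from the inactive X chromosome of females, stood at 910 CPM (counts of the gene scaled to 1000000 UMIs of the K cells of a library) in WT telogen S1 and at 716 and 776 CPM in the KO libraries, with 0 counts in WT telogen S2 and in both anagen libraries. The Y-linked *Ddx3y* had 0 counts in the first 3 of these and stood at 92.4 CPM in WT telogen S2 and at 86.9 and 73.2 CPM in the anagen libraries.

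Capillary ECs exchange fluid, gases and nutrients with the tissue. Many capillaries display GPIHBP1, which carries lipoprotein lipase to the vessel lumen, and take up the released fatty acids through CD36 and fatty acid binding proteins. KDR, also called VEGFR2, is the main signalling receptor for VEGF in ECs, and Alk1 with its co-receptor endoglin receives circulating BMP ligands and acts through SMAD proteins on targets such as *Id1* and *Id3*. The capillary bed of the skin grows and regresses with the hair cycle.

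The libraries held 32626434 UMIs in 4179 barcodes (WT telogen S1), 43317677 in 5977 (WT telogen S2), 35035677 in 5834 (WT anagen S1), 29851591 in 6643 (WT anagen S2), 10615358 in 2283 (KO S1) and 11239445 in 2502 (KO S2). K cells contributed 198, 204, 890, 458, 241 and 181 cells in the same order. Their median depth was 5648, 4393, 5594, 3592, 3786 and 4310 UMIs per cell. WT anagen S1 thus held the most K cells and KO S2 the fewest. Each pair of libraries shared 2 to 13 barcodes, and no barcode was that of a K cell in more than 1 library. A 2-mouse group allows no exact permutation p below 0.3333.

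K cells made up 16.8% of gated ECs in WT telogen S1 (95% Clopper-Pearson interval 14.7 to 19.1%, counting error only) and 16.5% in WT telogen S2 (14.5 to 18.7%). In WT anagen the share was 27.1% in S1 (25.6 to 28.6%) and 11.96% in S2 (10.95 to 13.03%). In the KO it was 19.9% in S1 (17.7 to 22.2%) and 13.4% in S2 (11.6 to 15.3%). The 2 anagen libraries lay on opposite sides of both telogen libraries, and so did the 2 KO libraries. The mean share was 16.7% ± 0.243 (SD, n = 2) in WT telogen, 19.5% ± 10.7 in WT anagen and 16.6% ± 4.59 in the KO, and neither difference passed an exact two-sided permutation test (p = 1 for each). The direction depends on the denominator. Over A, V, K and R cells alone the share was 32.4 and 33.0% in WT telogen, 42.1 and 16.9% in WT anagen and 45.6 and 34.9% in the KO, whose libraries then both lay above WT telogen (exact permutation p = 0.3333, the smallest possible with 2 against 2). L cells, left out there, numbered 88 and 81 in WT telogen and 263 and 313 in the KO. C cells, left out too, went the other way, with 271 and 294 in WT telogen and 122 and 173 in the KO. ECs assigned to no class numbered 207 and 244 in WT telogen and 298 and 348 in the KO. Of the cells near the limits of the rule, 316 K cells had the minimum score of 2 and 1012 exceeded their next best set by a single gene. Outside it, 68 ECs had a K score of 1 with fewer genes of every other set, and 3758 had a K score of at least 2 but not above every other set, of which 1267 were tied. A score of 0 in all other sets was found in 85 K cells.

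**Figure D1:**
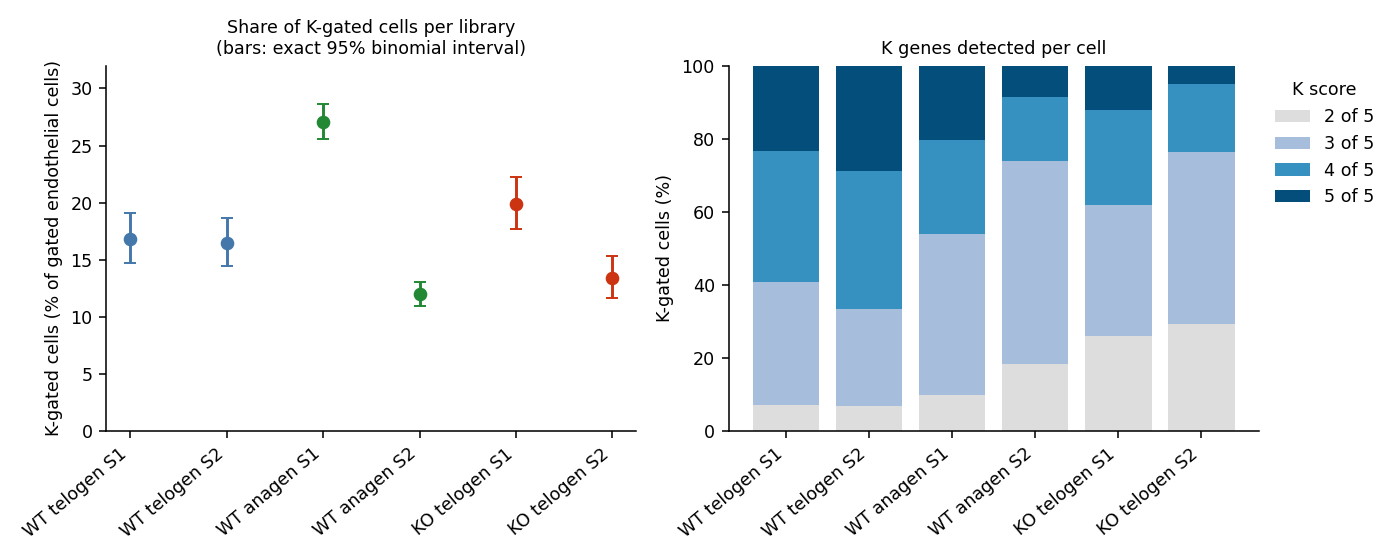
Left, K cells as a percentage of gated ECs in each of the 6 libraries, with exact 95% binomial intervals that cover counting error only. Right, the K score of K cells as a percentage of the K cells of each library; a score of 5 was reached by 23.2 and 28.9% of K cells in WT telogen, 20.3 and 8.52% in WT anagen and 12.03 and 4.97% in the KO.

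The K genes that chose the cells did not all vary alike between libraries. *Gpihbp1* was detected in 94.8 to 98.9% of K cells in all 6 libraries. *Rbp7*, a retinol binding protein gene, was detected in 83.2 to 91.6% of K cells in the WT libraries, in 42.7% in KO S1 and in 23.2% in KO S2. *Timp4*, a metalloproteinase inhibitor gene, was detected in 63.1 and 69.6% in WT telogen, in 37.9 and 24.7% in WT anagen and in 83.4 and 78.5% in the KO. A K cell of the KO was thus more often one with *Timp4* and less often one with *Rbp7* than a K cell of a WT library, as a description of the choice. K cells with a UMI of the R set were 83.0 to 94.4% in the WT libraries and 61.8 and 61.3% in the KO.

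The label was checked on genes the rule did not use. *Kdr* stood at 720, 711, 748 and 678 CPM in K cells of WT telogen S1 and S2 and WT anagen S1 and S2. L cells, the class with the next highest mean, held 268 to 359 CPM, R cells 238 to 292 CPM, V cells 172 to 199 and A cells 40.6 to 74.9. No K value overlapped with those of the other 5 classes. *Cxcl12*, the chemokine gene that marks skin capillaries, stood at 2431, 2335, 2428 and 3070 CPM in K cells and at 682 to 1104 CPM in R cells. *Cd36*, the fatty acid translocase gene, stood at 2030, 2514, 2022 and 1288 CPM in K cells and at 489 to 857 CPM in V cells, the next highest. All 3 genes were thus highest in K cells in each of the 4 WT libraries. In the KO the order changed for *Kdr*, which stood at 460 and 369 CPM in K cells, at 507 and 463 CPM in L cells and at 282 and 239 CPM in R cells, so that K cells were above R cells but not above L cells. After every cell was thinned to 2000 UMIs, *Kdr* was detected in 72.0 and 73.4% of K cells in WT telogen, 69.6 and 67.5% in WT anagen and 44.6 and 42.0% in the KO. In cells with *Ptprc* and without *Pecam1*, which should lack it, it was found in 0 to 1.79%. For *Cxcl12* the thinned shares were 79.6, 89.3, 86.8 and 91.1% in the WT libraries and 35.2 and 31.3% in the KO, against 0 to 5.36% in the same background cells.

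**Figure D2:**
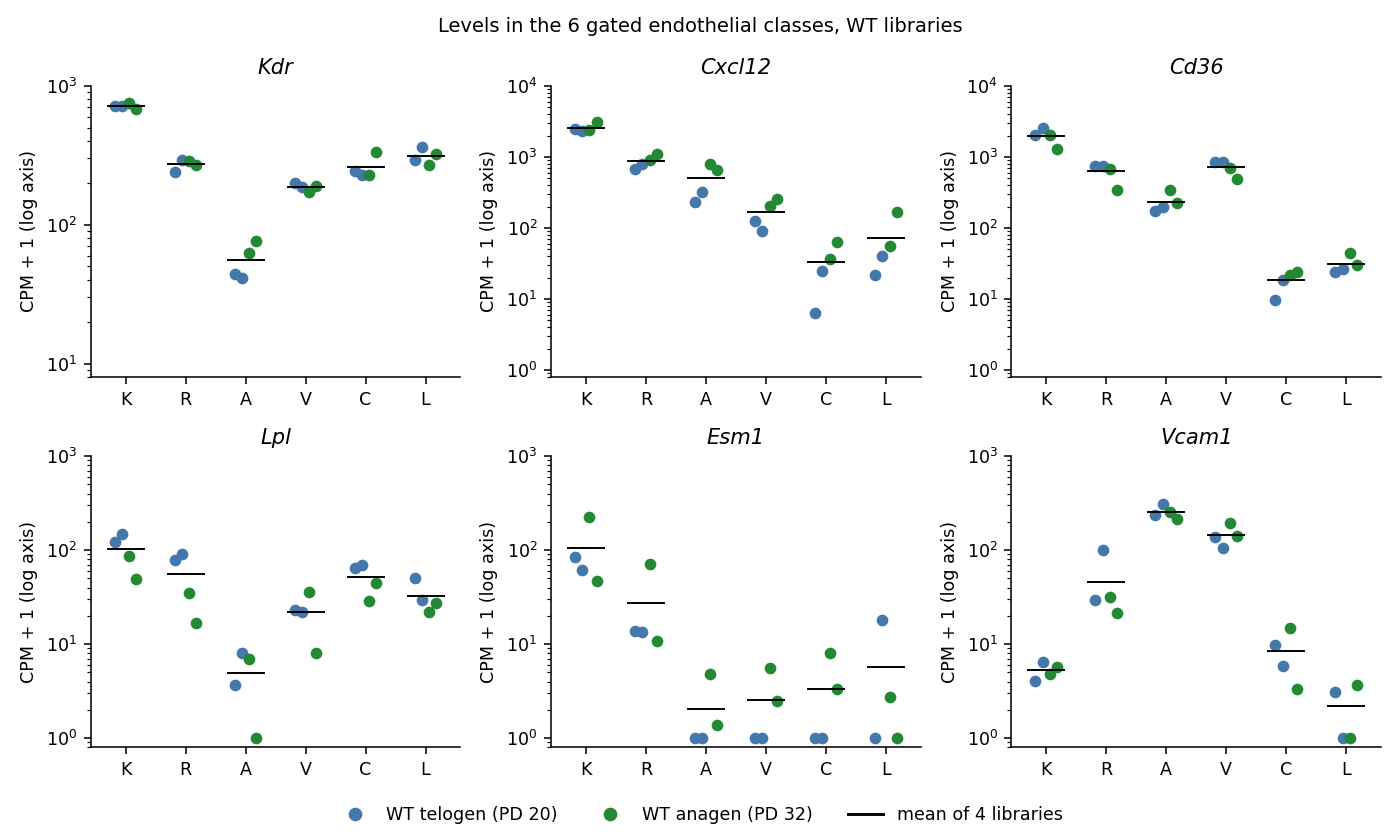
Level (CPM + 1, log axis) of 6 genes in the 6 gated EC classes of the WT libraries, K cells at the left; each point is a library and the line is the mean of 4. *Kdr*, *Cxcl12*, *Cd36*, *Lpl* and *Esm1* have their highest mean in K cells, and *Vcam1* is under 6 CPM in K cells and over 100 CPM in A and V cells.

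The differences of K cells from the A, V and R cells of the same WT libraries describe cells that were selected on their transcripts. They are given as folds and counts. The counts use an adjusted p as a limit only, and are not read as tests of the classes. Set against the mean of the 3 classes, 1611 of 10469 genes were higher in K cells (15.4%) and 1652 were lower (15.8%) in edgeR (fold above 1.3 with an adjusted p below 0.05). Against single classes the number that differed in either direction was 3170 for A (30.3%), 2794 for V (26.7%) and 4536 for R (43.3%). Of 18 genes of fatty acid and lipoprotein handling 12 were higher and 2 lower. *Aqp7*, the glycerol channel gene, stood at 120, 142, 142 and 67.5 CPM in K cells and at most at 21.5 CPM in any R library (log2 difference from the mean of A, V and R 4.31 ± 0.22, SE). *Lpl*, the lipoprotein lipase gene, stood at 122, 149, 86.0 and 48.6 CPM (2.51 ± 0.22). *Scarb1*, a lipoprotein receptor gene, differed by 1.61 ± 0.11, *Pparg*, a regulator of fat storage, by 1.44 ± 0.18, and *Tcf15*, a transcription factor gene of capillary fatty acid uptake, by 2.08 ± 0.19. *Fabp4*, a fatty acid binding protein gene, differed from R by 1.35 ± 0.17 but from V by -0.13 ± 0.17. *Vldlr*, another lipoprotein receptor gene, was lower, with a log2 difference of -2.14 ± 0.39.

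Of 15 genes known from sprouting tip cells, 12 were higher in K cells and none was lower. *Esm1*, a VEGF-induced proteoglycan gene, stood at 82.8, 60.4, 226 and 45.5 CPM in K cells, at 9.83 to 70.5 CPM in R cells and at 0 to 4.58 CPM in A and V cells. In each library the K value was the highest. *Aplnr*, the apelin receptor gene, differed by 2.61 ± 0.16 from the mean of the 3 classes. Of 13 VEGF and Tie pathway genes 4 were higher and 4 lower. Among the receptors, *Nrp1* differed by 1.38 ± 0.07 and *Flt1* by 0.68 ± 0.06, next to *Kdr* at 2.19 ± 0.09. The ligand gene *Vegfa* differed by -2.35 ± 0.30. Of 18 basement membrane genes 11 were higher and 6 lower. *Col15a1*, which encodes a collagen of vessel basement membranes, stood at 334, 365, 361 and 343 CPM in K cells and differed by 2.15 ± 0.12, and the type IV collagen gene *Col4a1* by 1.71 ± 0.09. The lower members included *Timp2* at -2.33 ± 0.16 and *Fn1* at -1.49 ± 0.16.

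Of 10 NF-κB feedback and target genes 9 were lower in K cells and none was higher. The sets that chose the V and R cells hold the adhesion genes *Sele* and *Selp* and the cytokine gene *Il6*. K cells were chosen to show fewer genes of each such set than of their own. The part of this choice in the NF-κB count was not tested. *Nfkbia*, which encodes the inhibitor IκBα, stood at 1230, 1094, 1193 and 1391 CPM in K cells and at 4070 to 6909 CPM in R cells (-1.73 ± 0.08). Among K cells with a score of 0 in all other sets the difference was -0.37 and was no longer called. *Icam1*, a leukocyte adhesion molecule gene, differed by -1.31 ± 0.10. *Vcam1*, another, stood at 3.10, 5.49, 3.77 and 4.71 CPM in K cells and at 212 to 311 CPM in A cells. By the size of the difference, the genes with the largest excess in K cells were *Slc28a2* (a nucleoside transporter, 4.84 ± 0.26), *Kcna5* (a potassium channel, 4.76 ± 0.29), *Esm1* (4.58 ± 0.20), *Aqp7*, *Kcnj8* and *Btnl9* (4.15 ± 0.14), followed by *Gm12002*, *Ccdc85a*, *Sez6l2*, *Prnd*, *Col13a1* and *Thrsp* (3.21 ± 0.10). The 12 with the largest deficit were *Serpina1e*, *Lox* (-5.03 ± 0.23), *Vcam1* (-4.92 ± 0.38), *Masp1*, *Pthlh*, *Ctsh* (-4.84 ± 0.28), *Lpcat2*, *Gxylt2*, *Gata6* (-4.48 ± 0.32), *Csf3* (-4.39 ± 0.20), *Cmklr1* and *Kcnn4*. Pericyte markers were among the higher genes, 6 of 8, with *Rgs5* (2.06 ± 0.29) as their most abundant and *Kcnj8* of the list above among them. In R cells of the same libraries *Rgs5* was as abundant, at 1058 and 936 CPM in telogen, as in K cells. The summed level of the 8 pericyte markers was 1425 and 1589 CPM in telogen and 393 and 226 CPM in anagen in K cells. In R cells it was higher in each library, at 1919, 2060, 399 and 270 CPM in the same order. In A cells it was 686, 708, 593 and 175 CPM and in V cells 718, 541, 707 and 519 CPM. The part that transcripts of other cells have in these differences was not tested.

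K cells varied along their own score. In every library *Fabp4* was higher the more K genes a cell held. In WT telogen S1 it stood at 7429, 11043, 22007 and 35174 CPM over the cells with a score of 2, 3, 4 and 5. In WT anagen S1 it stood at 6322, 11257, 24987 and 43753 CPM, and in KO S1 at 5903, 9241, 14255 and 22291 CPM. *Plvap*, the gene of the diaphragm protein of fenestrae and caveolae, went the other way in the WT libraries between scores 3 and 5, from 2459 to 1150 CPM in WT telogen S1 and from 4174 to 1391 CPM in WT anagen S1. The KO libraries went in opposite directions, from 574 to 1018 CPM in KO S1 and from 636 to 460 CPM in KO S2, the latter with 9 cells at a score of 5. Cells with a score of 2 were shallower than the others in all 6 libraries, with a median of 1562 to 3554 UMIs. The libraries differ in their mix of scores, and the part of this mix in the differences between groups was not tested.

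Between the hair cycle stages few genes were called in K cells. As 1320 of 9578 genes had an unadjusted p under 0.05 in edgeR, this does not show that few genes differ. At anagen 20 of 9578 genes were higher (0.209%) and 69 were lower (0.72%) by the same limits. The counts rest on single libraries. Without telogen S1 or S2 8 and 6 genes were higher, without anagen S1 or S2 111 and 76, and without anagen S1 144 were lower. The rule had used *Timp4* and *Adamts4*, both among the 69. *Clu*, the clusterin gene, stood at 55.0 and 59.4 CPM in telogen and at 250 and 212 CPM in anagen. This rise was apart from the spread between mice (log2 fold change 2.09 ± 0.17, SE, adjusted p = 0.00523) and held with each library left out. *Plvap* stood at 1685 and 1307 CPM in telogen and at 2927 and 3114 CPM in anagen, with no overlap (1.08 ± 0.17, adjusted p = 0.0343). Without telogen S1 the adjusted p was 0.0834 and without telogen S2 0.300. *Dbp*, a clock output transcription factor gene, stood at 9.29 and 4.57 CPM in telogen and at 44.2 and 27.7 CPM in anagen (2.45 ± 0.40, adjusted p = 0.0404, and 0.127 without telogen S2). *Psmb9*, an immunoproteasome subunit gene, stood at 89.0 and 97.8 CPM in telogen and at 170 and 168 CPM in anagen (0.93 ± 0.15, adjusted p = 0.0343, and 0.212 and 0.169 without telogen S1 and S2). With the replicate number as a block *Psmb9* was not called (0.93, adjusted p = 0.0639). The class I antigen gene *H2-K1* did not pass (0.72 ± 0.15, adjusted p = 0.0790). Of 18 interferon and antigen presentation genes 1, *Psmb9*, was called, and 15 had a positive fold change. The median log2 fold change over all genes was 0.00, and the signs of the list were not tested.

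**Figure D3:**
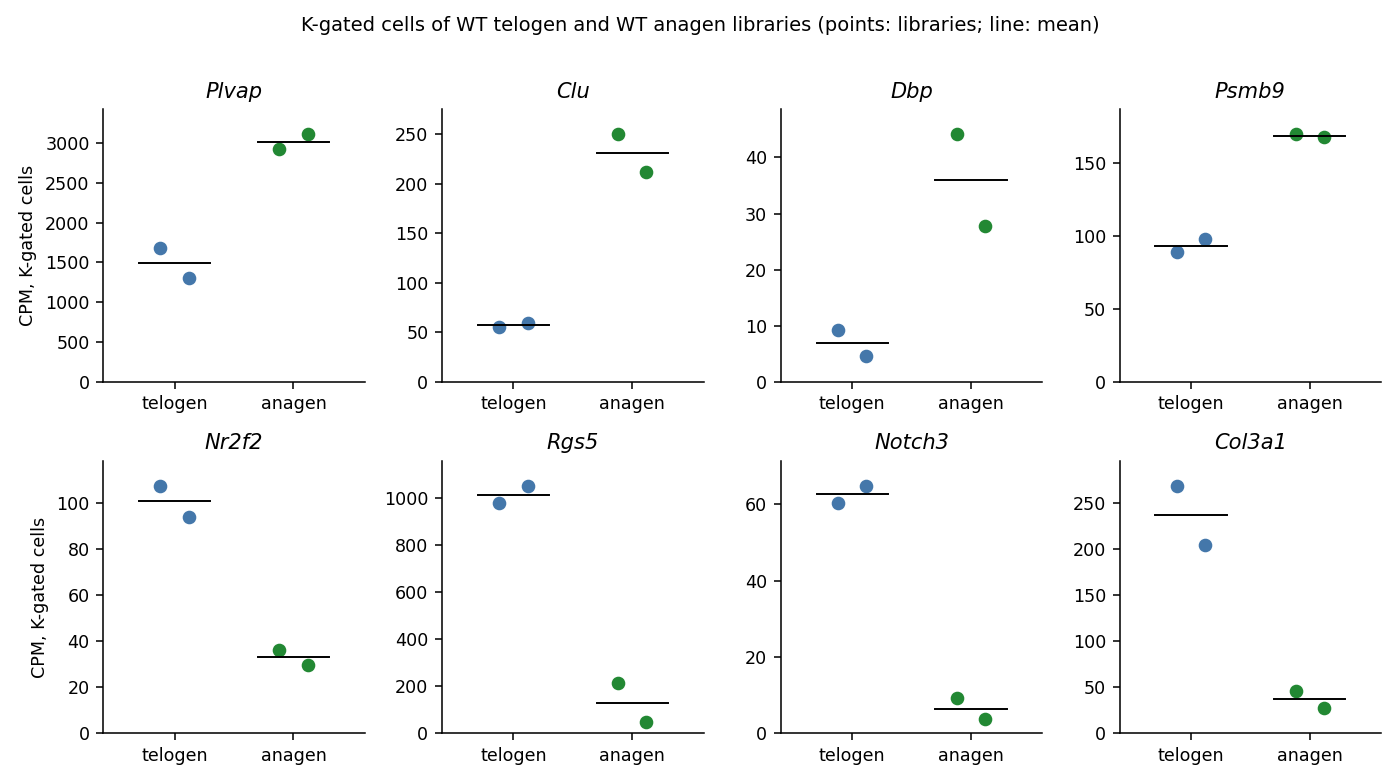
Level (CPM, from 0) of 8 genes in K cells of the WT telogen and WT anagen libraries; each point is a library and the line is the mean of 2. Both anagen points lie above both telogen points for *Plvap*, *Clu*, *Dbp* and *Psmb9* and below them for *Nr2f2*, *Rgs5*, *Notch3* and *Col3a1*, of which *Rgs5* did not pass the test (adjusted p = 0.0762).

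The rest of the genes higher at anagen were largely short transcripts. Of 82 ribosomal protein genes tested, 9 were higher and 0 lower, and 80 had a positive fold change (median 0.38 against 0.00 over all genes). Without telogen S1 only 2 of the 20 higher genes of all kinds were still called, and without telogen S2 also 2, *Clu* among them each time, so that at most 1 of the 9 ribosomal calls held in either case. *Rps28* stood at 604 and 620 CPM in telogen and at 2063 and 1526 CPM in anagen (1.63 ± 0.18, adjusted p = 0.0112). *Rps21* (1.34 ± 0.15), *Tmsb10*, which encodes the actin-binding thymosin β10 (1.09 ± 0.14), and *Ndufa3*, a complex I subunit gene (1.52 ± 0.24), were higher too, and these 4 lost the call without either telogen library (adjusted p 0.0531 to 0.169). Of the 20 higher genes, 12 had an annotated transcript under 1000 bases, with a median of 865 bases against 3424 bases over all genes tested. Oxidative phosphorylation genes were higher in 2 and lower in 1 of 80 tested. The part that transcript length has in this was not tested.

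Among endothelial lists the stage comparison called little. Of 16 genes of lipid handling, 12 of the VEGF and Tie pathway, 19 of the Alk1 and BMP pathway, 12 of Notch, 14 of tip cells, 18 of the basement membrane and 16 shared by all ECs, edgeR called none in either direction. *Kdr* had a log2 fold change of 0.07 ± 0.14 (adjusted p = 0.882), *Cxcl12* of 0.28 ± 0.15 (0.492), *Cd36* of -0.38 ± 0.23 (0.520) and *Acvrl1* of -0.28 ± 0.15 (0.472). *Nr2f2*, the transcription factor gene COUP-TFII of venous identity, fell from 108 and 94.2 CPM in telogen to 36.3 and 29.8 CPM in anagen (-1.51 ± 0.18, adjusted p = 0.0129). It held with each library left out but not with mitochondrial UMIs under 5% (-1.01, adjusted p = 0.0633). *Igfbp5*, an insulin-like growth factor binding protein gene, fell from 93.7 and 146 to 18.1 and 7.85 CPM (-2.97 ± 0.34, adjusted p = 0.0115). *Cebpb*, a stress and inflammation transcription factor gene, fell from 233 and 236 to 96.6 and 92.1 CPM (-1.24 ± 0.14, adjusted p = 0.0115). The summed pericyte and fibroblast markers in K cells, given below, fell at anagen too. The part that transcripts of other cells have in these falls was not tested. *Nr2f2* was not among the genes that could be tested in K cells without a UMI of another lineage.

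The 12 largest falls at anagen were *Rian*, *Ccl11* (from 62.7 and 50.3 to 1.62 and 1.57 CPM, -5.03 ± 0.31, adjusted p = 0.00372), the imprinted noncoding RNA *Meg3* (from 242 and 270 to 18.7 and 4.18 CPM, -4.17 ± 0.43, adjusted p = 0.00913), *Dlk1*, *Postn*, *Rbms3*, *Shox2*, *Zeb2*, *Twist1*, *Col6a3*, *Notch3* and *Ddr2*. Of 5 fibroblast markers tested 3 fell, all collagens (*Col1a1*, *Col1a2*, *Col3a1*), and of 8 pericyte markers 3 fell (*Notch3*, *Pdgfrb*, *Des*). The summed level of the 8 pericyte markers in K cells was 1425 and 1589 CPM in WT telogen, 393 and 226 CPM in WT anagen and 338 and 581 CPM in the KO. That of the 6 fibroblast markers, led by *Col3a1*, was 681 and 572 CPM, 102 and 190 CPM, and 17.7 and 9.04 CPM. That of the 10 immune markers, led by *Cd74*, was 99.1 and 403 CPM, 144 and 34.0 CPM, and 9.30 and 12.4 CPM. That of the 4 haemoglobin genes was 7404 and 882 CPM, 2917 and 45.5 CPM, and 9794 and 1746 CPM, where libraries of 1 group differed more than the groups. No marker of the first 3 lists was at 0 in all libraries. *Rgs5* was found in 28.0 and 29.4% of thinned K cells in WT telogen, 10.6 and 3.76% in WT anagen and 4.66 and 5.33% in the KO, and in at most 0.259% of the *Ptprc*-positive background cells. A sum over cells cannot tell fewer cells with a transcript from less of it per cell.

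K cells without a single UMI of 7 such lists (immune, fibroblast, pericyte, perineurial, Schwann cell, keratinocyte and haemoglobin) numbered 28 of 198 and 28 of 204 in WT telogen, 309 of 890 and 218 of 458 in WT anagen and 123 of 241 and 92 of 181 in the KO. Among these, 5378 genes could be tested between stages, 0 were higher and 1 was lower, with 408 at an unadjusted p under 0.05 in edgeR, beside 1320 of 9578 genes among all K cells. All 20 higher genes but only 13 of the 69 lower ones could be tested there, so that the 1 lower gene cannot be set against 69. These cells were also shallower, with medians of 3034.5 and 2598 UMIs in WT telogen against 6088.5 and 4852.5 in the other K cells. *Clu* had a log2 fold change of 2.52 there (adjusted p = 0.0810) and *Plvap* of 1.03 (0.419). The part that transcripts of other cells have in the stage difference was not tested further.

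**Figure D4:**
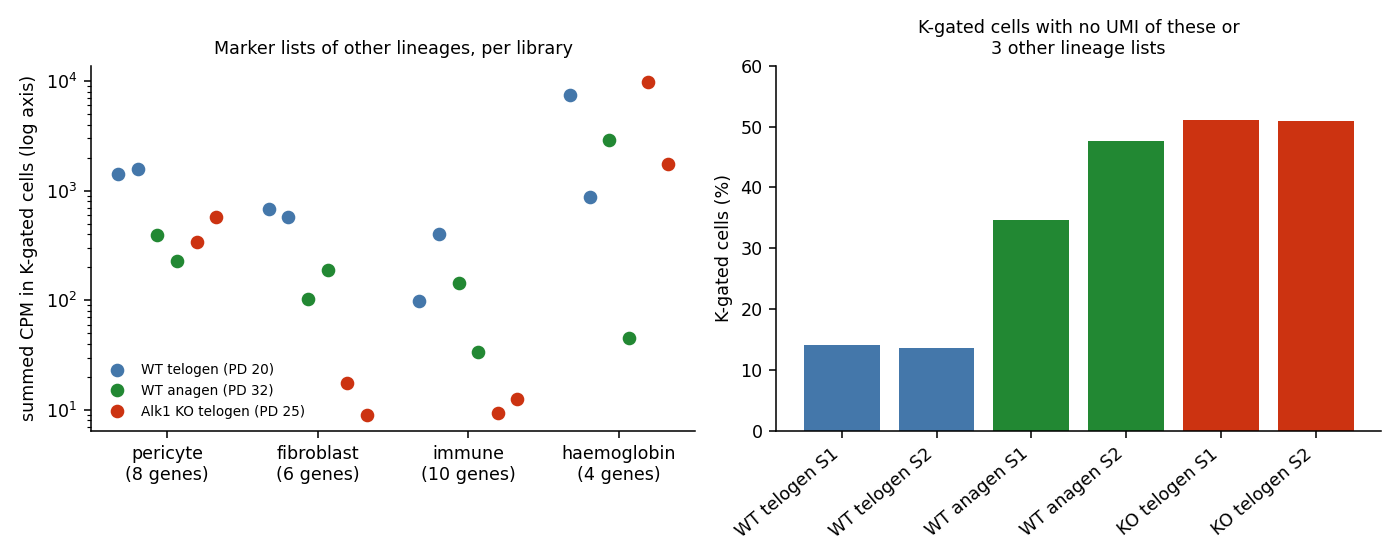
Left, summed level (CPM, log axis) of 4 marker lists of other lineages in K cells, 1 point per library, with WT telogen highest for pericyte and fibroblast markers. Right, the percentage of K cells of each library without a UMI of 7 such lists, 14.1 and 13.7% in WT telogen, 34.7 and 47.6% in WT anagen and 51.0 and 50.8% in the KO.

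In the KO, *Acvrl1* was read first as the targeted gene. It stood at 176 and 155 CPM in K cells of WT telogen and at 119 and 108 CPM in the KO, with no overlap (log2 fold change -0.61 ± 0.17, adjusted p = 0.0140). The call was lost without WT telogen S1 (adjusted p = 0.129), without KO S2 (0.0709), in DESeq2 (0.168) and with equal numbers of K cells and UMIs per library (0.0952). In thinned K cells it was detected in 28.0 and 23.7% in WT telogen and in 16.6 and 16.7% in the KO, against 6.14, 6.61, 0 and 2.38% of the background cells. The exons that the flox alleles delete are not given in the sources used here, and reads of a 3′ library can come from outside them, so that the level is no measure of deletion.

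K cells of the KO and of WT telogen differed widely. Of 8865 genes, 1334 were higher in the KO (15%) and 1557 lower (17.6%), and a list is to be read against these shares. Without WT telogen S1 the number higher was 849, and 776 of the 1334 and 1051 of the 1557 were still called. DESeq2 still called 525 and 736 of them. The comparison uses the same WT telogen libraries as the stage comparison. The rule had used 13 of the called genes, 6 higher and 7 lower, *Gpihbp1*, *Rbp7* and *Cd300lg* among them. They are included in the counts above and describe the choice of cells. All 9 mitochondrial genes that were called are part of the filter on cells as well. The median mitochondrial share of K cells was 4.72 and 4.64% of UMIs in WT telogen and 3.20 and 2.87% in the KO.

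Of the Alk1 and BMP pathway 17 genes were tested, 4 rose and 4 fell. Those that fell were *Acvrl1*, the targets *Id1* and *Id3* and the co-receptor gene *Eng*. *Id1* stood at 729 and 598 CPM in WT telogen and at 340 and 277 CPM in the KO (-1.17 ± 0.18, adjusted p = 0.000337). *Id3* stood at 1023 and 757 CPM and at 353 and 317 CPM (-1.48 ± 0.18, adjusted p = 6.65e-05). *Eng*, the endoglin gene, fell from 550 and 564 to 333 and 335 CPM (-0.81 ± 0.16, adjusted p = 0.00169). The transducer gene *Smad1* rose from 104 and 124 to 384 and 512 CPM (1.90 ± 0.19, adjusted p = 8.91e-06). *Bmpr2*, the type II receptor gene, rose by a log2 fold change of 0.73 ± 0.19 (adjusted p = 0.0117), a call lost without WT telogen S2 (adjusted p = 0.0967) and without KO S1 (0.119). The other risers, *Acvr2b* (1.38 ± 0.42, adjusted p = 0.0240) and *Smad5* (0.60 ± 0.21, adjusted p = 0.0382), each lost the call without WT telogen S1 (adjusted p = 0.178 and 0.356) and without KO S1 (0.189 and 0.107), *Acvr2b* also without WT telogen S2 (0.0989) and *Smad5* without KO S2 (0.0757). DESeq2 called none of these 3 (adjusted p = 0.0646 for *Bmpr2*, 0.332 for *Acvr2b* and 0.376 for *Smad5*). The inhibitory *Smad6* and *Smad7* did not pass (adjusted p = 0.664 and 0.253), nor did the Alk1 target *Tmem100* (-1.06 ± 0.45, adjusted p = 0.0899). Of 9 TGF-β genes 3 rose and 2 fell, and the receptor gene *Tgfbr2* rose by 1.31 ± 0.18 (adjusted p = 0.000148).

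The genes that mark the class moved apart. *Kdr* fell from 720 and 711 CPM to 460 and 369 CPM (-0.85 ± 0.17, adjusted p = 0.00186). *Cxcl12* fell from 2431 and 2335 to 513 and 324 CPM (-2.57 ± 0.20, adjusted p = 1.78e-06). *Cd36* stood at 2030 and 2514 CPM in WT telogen and at 3930 and 2908 CPM in the KO (0.53 ± 0.16, adjusted p = 0.0259). This call was lost without WT telogen S1 (adjusted p = 0.203), without KO S1 (0.189) and among K cells without a UMI of another lineage (0.551). Of 12 VEGF and Tie genes 1 rose and 4 fell. The co-receptor gene *Nrp1* fell from 696 and 676 to 215 and 212 CPM (-1.75 ± 0.16, adjusted p = 6.54e-06), and the receptor gene *Flt1* by -0.85 ± 0.15 on the log2 scale (adjusted p = 0.000753). The ligand gene *Pgf*, for placental growth factor, rose from 10.8 and 72.2 to 536 and 533 CPM (3.66 ± 0.46, adjusted p = 6.50e-05). Its 2 WT telogen values lie far from each other and both far below the KO values.

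Of 16 lipid handling genes 1 rose, *Cd36*, and 6 fell. *Fabp4* fell from 20444 and 27931 to 12441 and 10973 CPM (-1.11 ± 0.13, adjusted p = 4.03e-05). *Fabp5* fell from 928 and 1514 to 226 and 298 CPM (-2.29 ± 0.22, adjusted p = 8.91e-06), and *Aqp7* from 120 and 142 to 39.1 and 19.2 CPM (-2.19 ± 0.26, adjusted p = 4.69e-05). As a description, the log2 ratio of the *Fabp4* mean of the KO to that of WT telogen was -0.71, -0.58, -0.80 and -0.68 among cells with a score of 2, 3, 4 and 5, and -1.05 for all K cells on the same scale. The score counts genes of the rule, of which *Gpihbp1*, *Rbp7* and *Cd300lg* were themselves called in the KO, so that nothing is read from these ratios. *Tcf15* fell by -0.83 ± 0.21 on the log2 scale (adjusted p = 0.0103, 0.108 without KO S1 and 0.0614 in DESeq2). *Lpl* stood at 122 and 149 CPM in WT telogen and at 388 and 65.5 CPM in the KO, whose libraries lay on both sides of the WT values (adjusted p = 0.299).

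Of 17 basement membrane genes 10 fell and 3 rose. Pericytes and fibroblasts make many of these proteins too, and their summed markers moved from 1425 and 1589 to 338 and 581 CPM and from 681 and 572 to 17.7 and 9.04 CPM, whose part in this was not tested. *Col15a1* fell from 334 and 365 to 22.3 and 16.9 CPM (-4.20 ± 0.21, adjusted p = 6.83e-08). *Sparc*, which encodes a collagen-binding matrix protein, fell from 5797 and 5730 to 1074 and 1186 CPM (-2.42 ± 0.13, adjusted p = 1.06e-07). *Col4a1* fell by -1.36 ± 0.16 and *Col18a1*, the gene of the endostatin precursor, by -2.51 ± 0.33 (adjusted p = 3.87e-05 and 0.000107). The metalloproteinase inhibitor gene *Timp3* went up, from 663 and 734 to 2781 and 2077 CPM (1.73 ± 0.17, adjusted p = 8.91e-06). *Lamc1*, a laminin chain gene, rose by 0.72 ± 0.17 (adjusted p = 0.00627), and by 0.65 without WT telogen S1, which did not pass (0.0519).

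Of 14 tip cell genes 5 rose and 4 fell. *Aplnr* fell from 166 and 234 to 3.72 and 9.04 CPM (-5.06 ± 0.32, adjusted p = 4.27e-07). *Esm1* fell from 82.8 and 60.4 to 9.30 and 12.4 CPM (-2.80 ± 0.32, adjusted p = 3.66e-05). *Cxcr4*, the receptor gene for the *Cxcl12* product, rose from 20.1 and 9.14 to 140 and 167 CPM (3.27 ± 0.28, adjusted p = 2.81e-06). *Igfbp3* rose from 194 and 146 to 1035 and 827 CPM (2.38 ± 0.20, adjusted p = 2.66e-06), while *Igfbp7*, of the same family, fell from 8257 and 7437 to 1177 and 1131 CPM (-2.83 ± 0.13, adjusted p = 5.44e-08). Of 12 Notch pathway genes 5 rose and none fell. They included the ligand genes *Jag1* (from 36.4 and 20.1 to 89.3 and 91.5 CPM, 1.58 ± 0.27, adjusted p = 0.000603), *Jag2* (1.61 ± 0.23, adjusted p = 0.000160) and *Dll4* (0.96 ± 0.18, adjusted p = 0.00125) and the receptor gene *Notch4* (1.26 ± 0.22, adjusted p = 0.000717).

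*Plvap* fell from 1685 and 1307 to 627 and 595 CPM (-1.36 ± 0.17, adjusted p = 5.84e-05) and *Cavin2*, a caveolar coat gene, from 999 and 1313 to 266 and 262 CPM (-2.20 ± 0.17, adjusted p = 1.78e-06), and of 9 fenestral and caveolar genes 5 fell and none rose. The water channel gene *Aqp1* fell by -1.90 ± 0.21 on the log2 scale (adjusted p = 2.88e-05). Of 14 adhesion and chemokine genes 11 fell, *Podxl* among them (-1.87 ± 0.20, adjusted p = 1.57e-05), and 1, *Ly6c1*, rose (0.40 ± 0.13, adjusted p = 0.0329), a call lost without WT telogen S1 (0.104), WT telogen S2 (0.347) or KO S2 (0.0806) and in DESeq2 (0.0699). Of 10 junction and barrier genes 5 rose and 3 fell, and the tight junction gene *Cldn5* rose from 709 and 580 to 1272 and 1227 CPM (0.89 ± 0.16, adjusted p = 0.000991). Among 16 genes shared by all ECs 7 rose and 4 fell. The transcription factor genes *Erg* (1.46 ± 0.18, adjusted p = 6.40e-05) and *Fli1* (1.38 ± 0.21, adjusted p = 0.000258) rose, and *Ets1* (-1.07 ± 0.17, adjusted p = 0.000346) and *Icam2* (-1.03 ± 0.17, adjusted p = 0.000514) fell.

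**Figure D5:**
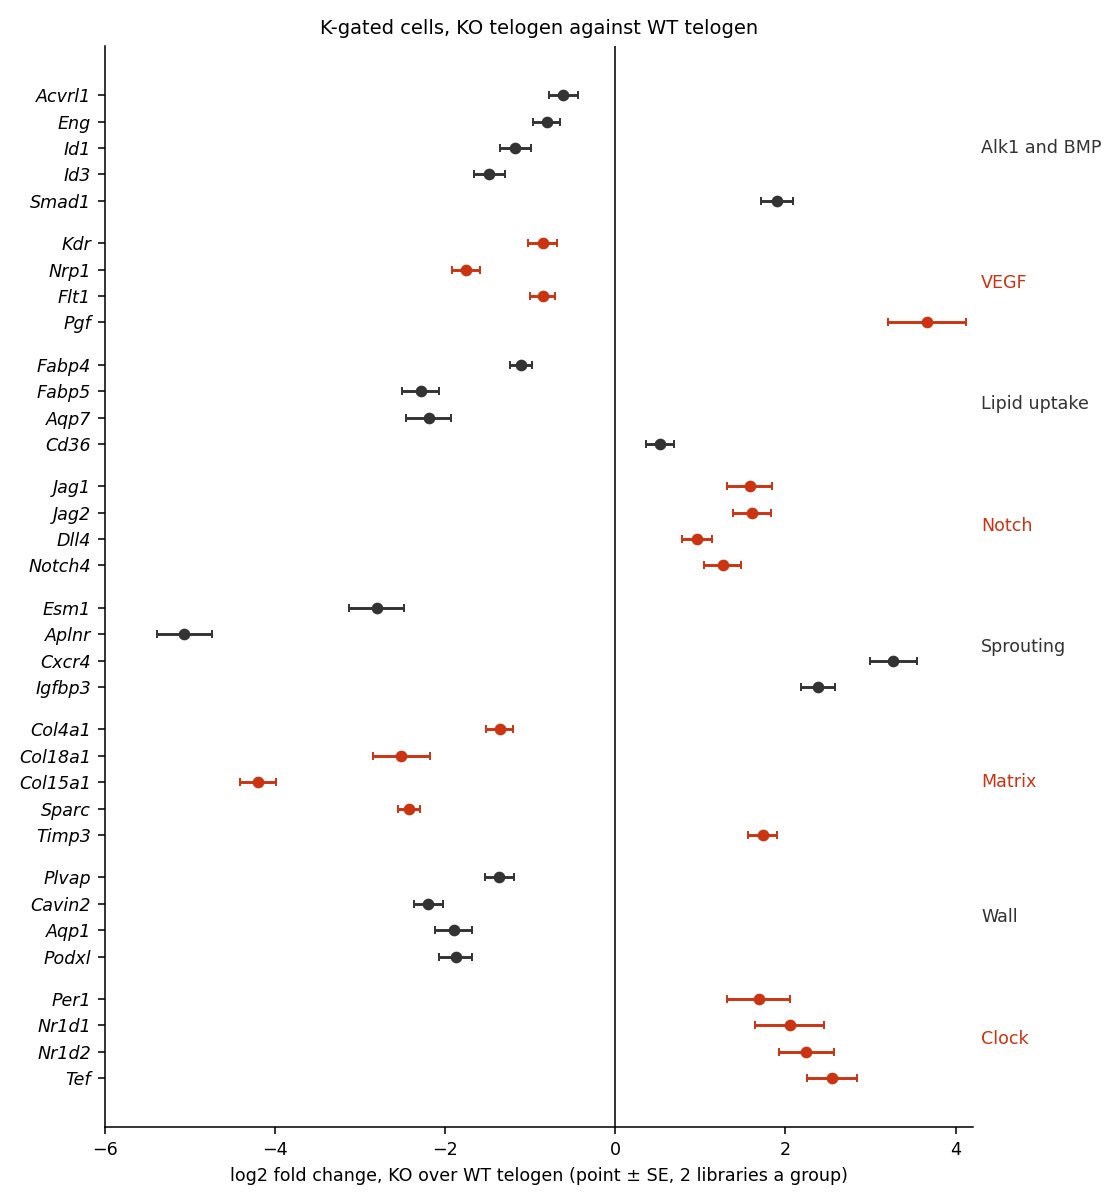
Log2 fold change of KO over WT telogen in K cells (point ± SE, 2 libraries a group) for 34 genes grouped by role. Points left of 0 are lower in the KO; the 5 matrix genes hold both the fall of *Col15a1* (-4.20) and the rise of *Timp3* (1.73).

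Of 79 oxidative phosphorylation genes 60 fell and 2 rose (median log2 fold change -0.87, against 0.01 over all genes). Of 18 genes of glycolysis and hypoxia 7 fell, *Ldha* among them (-1.27 ± 0.16, adjusted p = 6.69e-05), and 3 rose. The risers were *Pfkfb3*, a regulator of glycolysis (from 26.3 and 24.7 to 191 and 172 CPM, 2.75 ± 0.20, adjusted p = 9.48e-07), *Bnip3*, a mitophagy receptor gene (3.29 ± 0.27, adjusted p = 2.19e-06), and *Adm*, the adrenomedullin gene (1.89 ± 0.30, adjusted p = 0.000389). Of 82 ribosomal protein genes 33 rose and 3 fell. Genes that rose had a median transcript length of 4410 bases and those that fell one of 2330 bases, against 3458 bases over all tested, and the part of length in these lists was not tested. All 6 cell cycle genes fell, *Mki67* from 34.1 and 60.4 to 3.72 and 5.65 CPM (-3.38 ± 0.46, adjusted p = 0.000137) and *Top2a* by -2.92 ± 0.35 (adjusted p = 5.36e-05). In thinned K cells *Mki67* was found in 1.61 and 2.82% in WT telogen, which is under its 8.51 and 8.50% in the background cells.

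Of 12 clock genes tested, 7 rose and none fell (median log2 fold change 1.34). *Tef*, a transcription factor gene of the clock output, stood at 11.6 and 11.9 CPM in WT telogen and at 63.3 and 82.5 CPM in the KO (2.54 ± 0.29, adjusted p = 3.74e-05). *Nr1d2*, which encodes the repressor REV-ERBβ, stood at 17.8 and 12.8 CPM and at 57.7 and 99.4 CPM (2.25 ± 0.33, adjusted p = 0.000213). *Per1*, a repressor of the clock loop, stood at 13.9 and 43.0 CPM and at 72.6 and 116 CPM (1.69 ± 0.37, adjusted p = 0.00373). *Per2*, another, held 3 counts over both WT telogen libraries and 81 over the KO libraries, a ratio of 32.9 (95% counting interval 10.8 to 163). *Nr1d1* rose by 2.05 ± 0.41 (adjusted p = 0.00195). *Per3* (1.40 ± 0.39, adjusted p = 0.0146) and *Cry2* (1.28 ± 0.38, adjusted p = 0.0208) each lost the call without WT telogen S1 (0.0727 and 0.210) and without KO S1 (0.0603 and 0.0709), and *Per3* without WT telogen S2 as well (0.0999). DESeq2 called neither (adjusted p = 0.258 and 0.277). The activator gene *Arntl* stood at 21.7 and 29.3 CPM and at 28.8 and 16.9 CPM (adjusted p = 0.729) and *Dbp* at 9.29 and 4.57 CPM and at 7.44 and 21.5 CPM (0.244). The hour at which skin was collected is not given in the sources used here.

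The promoters of these genes were searched because clock proteins bind known short elements, the E-box CACGTG and the D-box, here TTATGCAA and TTATGTAA. Windows of 250 bases before to 50 after the start were read on both strands from RefSeq (GRCm38.p6). Of the 7 genes that rose 6 have an entry and 3 of these hold an element, *Per1*, *Per3* and *Tef*. Of the other 8 genes of the list 7 have an entry and 2 of them hold one, *Ciart* and *Cry1*. Of all 32851 promoter windows, 8.74% hold any of the 3 elements, 7.15% CACGTG, 0.743% TTATGCAA and 0.938% TTATGTAA. These shares are per window, while a gene with several windows, such as *Per1* and *Tef* with 2 each, was counted when any of them held an element. A match is a description of the letters and not a bound site. The stretches upstream of the start that hold the matches are shown for the 3 genes, in lower case with the element in capitals, 5′ to 3′ on the strand of the gene. In *Per1* (chr11:69098769-69098948, plus strand) the E-box begins 166 bases and the D-box 24 bases before the start, in *Per3* (chr4:151044795-151044905, minus strand) D-boxes begin 205 and 158 bases before it, and in *Tef* (chr15:81802503-81802593, plus strand) the E-box begins 127 bases before it. The other *Tef* window (chr15:81811164-81811463, plus strand) holds an E-box too, with its first base at -138 from its own start, and is not shown.
Per1: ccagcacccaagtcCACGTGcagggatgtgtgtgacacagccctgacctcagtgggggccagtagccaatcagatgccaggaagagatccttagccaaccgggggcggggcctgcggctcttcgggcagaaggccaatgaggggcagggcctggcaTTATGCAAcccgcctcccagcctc
Per3: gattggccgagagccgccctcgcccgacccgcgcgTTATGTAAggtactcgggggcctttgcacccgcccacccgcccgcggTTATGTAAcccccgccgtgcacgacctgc
Tef: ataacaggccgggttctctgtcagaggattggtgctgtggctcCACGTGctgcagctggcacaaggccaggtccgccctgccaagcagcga

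By size the 12 largest rises in the KO were *Doc2b*, *Slc15a2*, *Sectm1b*, *Hif3a*, *Ccn3*, *Gm19590*, *Klf15*, *Per2*, *AA467197*, *Rassf4*, *Sned1* and *Pnpla7*. *Doc2b*, a calcium sensor gene of exocytosis, had 0 counts in WT telogen and 104 and 70.0 CPM in the KO, at least 70.6-fold higher when 3 counts over the WT group are taken as the floor. *Hif3a*, a hypoxia-inducible factor gene, was at least 17.8-fold higher by the same bound. *Ccn3*, a matricellular protein gene, rose from 5.42 and 6.40 to 543 and 209 CPM (5.92 ± 0.49, adjusted p = 2.44e-06). *Klf15*, a metabolic transcription factor gene, held 3 counts over WT telogen and 93 over the KO, a ratio of 37.7 (12.5 to 186). *Sned1*, a matrix protein gene, rose from 13.2 and 12.8 to 302 and 314 CPM (4.49 ± 0.21, adjusted p = 5.44e-08).

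The 12 largest falls were *Meg3* (at least 167-fold lower), *Col6a3*, *Vtn*, *Col1a1* (at least 64.4-fold), *Postn*, *Col6a1*, *Ccl11*, *Pf4*, *Scgb3a1*, *Col6a2*, *Vstm4* and *C1s1*, all with 0 counts in both KO libraries. Of the marker lists of other lineages, 4 of 4 fibroblast, 5 of 5 immune and 7 of 8 pericyte genes tested fell, at the summed levels given above, and 16 of the 1557 lower genes are on these lists. The exception was *Tagln*, a contractile gene of mural cells that ECs can also express, which rose from 46.4 and 75.9 to 274 and 485 CPM (2.57 ± 0.27, adjusted p = 1.70e-05). *Rgs5* fell from 977 and 1052 to 19.5 and 74.5 CPM (-4.54 ± 0.38, adjusted p = 2.66e-06). Among K cells without a UMI of another lineage 338 of 4118 genes were higher and 352 lower in the KO. Of 61 single genes called in the KO that were also tested among these cells, 48 kept the call, and *Kdr*, *Cxcl12*, *Id1*, *Id3*, *Smad1*, *Col15a1* and *Pgf* were among them. The 13 that lost it there included *Acvrl1* (-0.92, adjusted p = 0.116), *Dll4* (0.60, 0.315), *Notch4* (1.04, 0.102), *Jag2* (1.12, 0.0685) and *Nr1d1* (1.48, 0.152), with fewer cells in each library.

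Whether K cells differed from R and A cells in these responses was tested as an interaction. Between stages 15 of 10475 genes (0.143%) differed between K and R and 31 of 10086 (0.307%) between K and A. For the KO, 206 of 9409 (2.19%) differed between K and R and 240 of 8773 (2.74%) between K and A. These counts too rest on single libraries. Between stages, K and R differed in 53, 40 and 9 genes without telogen S1, telogen S2 and anagen S1, and K and A in 91, 70 and 18 without telogen S1, telogen S2 and anagen S2. For the KO, K and R differed in 114 and 18 genes without WT telogen S1 and S2, and K and A in 141, 10 and 28 without WT telogen S1, KO S1 and KO S2. *Kdr* fell in K cells, from a mean of 716 to 415 CPM, and its means were 265 and 261 CPM in R cells, a difference of log2 fold changes of -0.87 ± 0.21 (adjusted p = 0.0366). The call was lost with each of the 4 libraries left out in turn (adjusted p 0.0560 to 0.459). *Fabp4* fell from 24188 to 11707 CPM in K cells and its means were 8794 and 7243 CPM in R cells (-0.84 ± 0.10, adjusted p = 0.000427, and 0.162 without WT telogen S2). *Smad1* rose from 114 to 448 CPM in K cells and its means were 115 and 170 CPM in R cells (1.33 ± 0.21, adjusted p = 0.00330, and 0.0866 without WT telogen S2). For *Acvrl1* the K to R difference was -0.33 ± 0.21 (adjusted p = 0.543) and the K to A difference -0.80 ± 0.21 (adjusted p = 0.0548), with means of 261 CPM in WT telogen and 305 CPM in the KO in A cells. For *Id1* it was -0.69 ± 0.25 (adjusted p = 0.187) against R and -0.49 ± 0.18 (adjusted p = 0.187) against A. Neither passed, which does not show that the classes responded alike.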

How the data were processed

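Sorted cells had been sequenced as 10x Chromium 3′ libraries and, per the labels, processed by the authors with Cell Ranger 6.0.1 against mm10 and with Seurat 4.0. The deposited values were raw UMI counts per gene and barcode, which the authors had not normalized, and all values here were computed from these counts. Barcodes with 200 to 5000 genes and under 10% mitochondrial UMIs were kept, and cells were classed by the 6 sets of 5 genes. The members, gene lists and tests were chosen with earlier results of these data known.

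Counts of K cells were summed per library and tested with edgeR 4.0.16 (quasi-likelihood, TMM, low-count filter, R 4.3.3). P-values were adjusted by Benjamini-Hochberg over all genes tested, and genes with an adjusted p below 0.05 and changed by more than 1.3-fold were called. SEs were the log2 fold change over the root of F. K cells were set against A, V and R cells of the 4 WT libraries with the library as a block, and differences between classes were tested as interactions. Each library was 1 mouse. Genes were named as the 12 largest called changes each way whose libraries did not overlap and whose higher group had at least 20 CPM, plus members of the lists. Genes printed for the interactions were picked from the called ones after their values were seen. Shares were compared by exact permutation (scipy 1.17.1). For detection each cell was thinned to 2000 UMIs, which drops cells with fewer. With Scrublet (scanpy 1.11.5) the automatic threshold marked 0.0930 to 1.09% of cells, so no cell was removed by it, and leaving out the 5% highest scores was an alternative. DESeq2 1.42.0, other filters, scores and denominators, and each library left out were further alternatives. The fits were tested on simulated data, of which no value is given here. Some results that name items withheld for evaluation are not reported here.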

Additional observations from a re-analysis of the deposited data

Results flagged for a closer look

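K cells differed from R or A cells of the same libraries in the change of the following genes, by an interaction term in edgeR. Each value is the log2 fold change in K cells minus that in the other class, with its SE and adjusted p. The genes were picked from those that passed after their values were seen.

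Between stages, K minus R was 1.103 ± 0.17 for *Clu* (adjusted p = 0.0370), 2.06 ± 0.33 for *Inhbb*, an activin subunit gene (0.0427), 1.37 ± 0.18 for *Tagln* (0.0202) and -4.49 ± 0.41 for *Ccl11* (0.00147). K minus A was 1.36 ± 0.16 for *Clu* (0.00230), 2.54 ± 0.39 for *Cd74* (0.0129) and 2.36 ± 0.44 for *H2-Ab1* (0.0473), both genes of class II antigen presentation, -1.09 ± 0.15 for *Cd36* (0.00572) and -1.21 ± 0.21 for *Cxcl12* (0.0320). *Cd74* overlapped between the stages in K cells, at 24.8 and 52.1 CPM in telogen and 69.8 and 16.2 CPM in anagen, and was lower at anagen in A cells, at 19.0 and 44.8 against 8.75 and 3.09 CPM. *H2-Ab1* did likewise, at 14.7 and 31.1 against 30.7 and 6.28 CPM in K cells and 21.7 and 39.2 against 7.11 and 2.32 CPM in A cells. The sum of the 10 immune markers, *Cd74* among them, moved with them in A cells, from 72.0 and 175 to 32.8 and 15.8 CPM, and its part in these differences was not tested. The sum of the 6 fibroblast markers moved at anagen from 681 and 572 to 102 and 190 CPM in K cells. In R cells this sum moved from 3454 and 5116 to 851 and 1521 CPM. Its part in the *Ccl11* difference was not tested. Other genes called lower in K minus R included *Mgp*, *Meg3* and *Col6a3*. With each library left out in turn, *Ccl11* against R and *Clu* against A kept the call. *Clu* against R lost it without telogen S2 (0.0517), anagen S1 (0.155) or anagen S2 (0.0591), *Inhbb* without telogen S1 (0.0545), anagen S1 (0.132) or anagen S2 (0.0591) and *Tagln* without anagen S2 (0.0591). *Cd74* lost it without anagen S1 (0.371), *H2-Ab1* without anagen S1 (0.711) or S2 (0.107), *Cd36* without anagen S2 (0.0514) and *Cxcl12* without anagen S1 (0.191). DESeq2 did not call *Cd74* (0.344) or *H2-Ab1* (0.9996) and gave no adjusted p for *Inhbb* and *Ccl11* against R.

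For the KO, K minus R was -0.87 ± 0.21 for *Kdr* (0.0366), -0.84 ± 0.10 for *Fabp4* (0.000427), 1.33 ± 0.21 for *Smad1* (0.00330), 0.84 ± 0.16 for *Timp3* (0.0117), 2.29 ± 0.49 for *Ccn3* (0.0213) and 3.96 ± 0.31 for *Tagln* (7.23e-06). K minus A was -0.81 ± 0.19 for *Id3* (0.0236), -1.14 ± 0.23 for *Cd36* (0.00976), -1.34 ± 0.19 for *Fabp4* (0.000711), -4.72 ± 1.17 for *Aplnr* (0.0351), 2.84 ± 0.64 for *Cxcr4* (0.0205), 5.003 ± 0.59 for *Ccn3* (0.000159) and 5.20 ± 0.32 for *Tagln* (5.48e-08). *Tagln* kept the call in both comparisons with each library left out. The sum of the 8 pericyte markers, *Tagln* among them, fell in the KO from 686 and 708 to 44.3 and 34.8 CPM in A cells. It fell from 1919 and 2060 to 132 and 380 CPM in R cells and from 1425 and 1589 to 338 and 581 CPM in K cells. The pericyte gene *Rgs5* had a K minus A of 5.74 ± 1.18 (0.0127). The part of pericyte transcripts in these differences was not tested. Against R, *Kdr* lost it in each case, *Fabp4* without WT telogen S2 (0.162), *Smad1* without WT telogen S2 (0.0866), *Timp3* without WT telogen S1 (0.163) or S2 (0.225) and *Ccn3* without WT telogen S2 (0.212) or KO S1 (0.0509). Against A, *Id3* (0.0572 to 0.271) and *Cxcr4* (0.0666 to 0.180) lost it in each case, *Cd36* (0.101) and *Fabp4* (0.0521) without KO S2, *Aplnr* without KO S1 (0.605) or S2 (0.0945) and *Ccn3* without KO S1 (0.0628). DESeq2 did not call *Id3* (0.101) and gave no adjusted p for *Ccn3* against R or A, nor for *Aplnr* and *Cxcr4* against A.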

How the results depend on the processing

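With a library of each group left out in turn, 6 to 111 genes were called higher and 55 to 144 lower at anagen, and 849 to 1098 higher and 1140 to 1310 lower in the KO. Stage interactions then numbered 9 to 53 (K minus R) and 18 to 91 (K minus A), and KO interactions 18 to 261 and 10 to 169. In the share of K cells, anagen minus telogen ranged from -4.69 to 10.4 percentage points, against 2.87 with all libraries, and KO minus WT telogen from -3.26 to 3.23, against -0.0143. A lone sample of a group is there assumed to vary like the others. The cause of the changes below was not tested unless stated.

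At anagen, 33 genes were higher and 110 lower with a K score of at least 3, 307 and 367 with no filter on low counts, 49 and 108 with all 6 libraries in one fit, and 0 and 1 among K cells with no UMI of another lineage, an alternative chosen after seeing the data that tested 13 of the 69 lower genes. DESeq2 called 66 higher, and equal numbers of K cells and UMIs gave 42. In the KO, DESeq2 called 532 higher and 767 lower, and K cells with no UMI of another lineage 338 and 352, where 956 of the 1334 higher and 898 of the 1557 lower genes were tested. A score of 0 in all other sets left 85 K cells, 2 and 7 of them in WT telogen, and gave 0 and 0 calls at anagen, 38 and 19 in the KO, 39 and 22 against the mean of A, V and R, and 60, 52 and 108 against A, V and R. It tested 244 genes at anagen, 468 in the KO and 499 against the classes, and at anagen 11 of the 20 higher and 0 of the 69 lower genes, so that its 0 counts say little. No filter gave 107 and 128 stage interactions (K minus R, K minus A) and 358 KO interactions (K minus R). DESeq2, which gave an adjusted p to fewer genes, called 16 of 8382 (stage, K minus A), 110 of 926 (KO, K minus R) and 43 of 1243 (KO, K minus A). *Cxcl1* fell at anagen (-1.57 ± 0.25) and stood at 0.27 in K cells with no UMI of another lineage. It also lost the call without the highest Scrublet scores (adjusted p = 0.228), without *Timp4* in the set (0.148), with all 6 libraries in one fit (0.0602) and without telogen S1 (0.0965) or anagen S2 (0.0624).

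The share difference at anagen was -0.168 points without *Cd300lg* in the K set and -3.21 over A, V, K and R cells, and 0.189, 0.275 and 1.60 without *Gpihbp1*, without *Rbp7* and with a K score of at least 3. That of the KO was 0.241 with at least 500 genes, 0.148 under 5% mitochondrial UMIs, 0.209 without the highest Scrublet scores, 0.285, 4.13 and 0.940 without *Car4*, *Rbp7* or *Cd300lg* in the set, 1.73 over all assigned cells and 7.57 over A, V, K and R cells. It stayed negative with a K score of at least 3 (-3.41), without *Timp4* (-2.34) or *Gpihbp1* (-1.40) in the set and after thinning (-0.165). The KO and WT telogen libraries did not overlap for the values of 4.13, 7.57 and -3.41. None passed an exact permutation test, whose smallest p here is 0.3333. Of 334 values for 20 named stage genes 37 lost the call and 1 turned its sign, and of 1188 values for 69 KO genes 75 lost the call. Replicate numbers did not pair the libraries (correlation of deviations -0.049 and 0.0295), and the replicate block gave 15 higher and 65 lower genes at anagen, with 9 of the 20 higher still called, and 1470 and 1687 in the KO.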
